A study of Mus musculus with 5 samples.

Results

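The 500 broadest H3K4me3 peaks of mouse epiblast stem cells were examined for the 3 other histone marks mapped in the same line. They were the 500 widest of the 27940 peaks that the H3K4me3 list holds on chromosomes 1 to 19, out of 28941 peaks in all, after leaving out a run of 30 peaks at the start of the assembled sequence of chromosome 11. Width was taken as end minus start on mm9. It chose the peaks, and the H3K4me3 score comes from the same library, so neither is a finding here. The states of H3K27ac, H3K4me1 and H3K27me3 come from other libraries and took no part in the choice. A wider interval still has more room to meet any peak. Mapping artefacts that libraries of the same line can share were not tested.

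The study mapped H3K4me1, H3K4me3, H3K27ac and H3K27me3 by chromatin immunoprecipitation and sequencing in EpiSC9, 1 line of mouse epiblast stem cells. The medium held knockout serum replacement and 10 ng/ml of FGF2, and the feeder layer was irradiated mouse embryonic fibroblasts, whose share of the chromatin was not tested. Each mark had its own antibody, 1 library and 1 peak list, with no treatment or genotype to compare. An input library was not analysed here. With 1 library per mark there is no replicate, so shares are given with 95% Wilson intervals that cover counting over peaks only, and differences carry no test.

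H3K4 trimethylation is placed by the SET1 and MLL (COMPASS) methyltransferases, mainly at promoters in CpG-rich DNA. In many cell types the broadest H3K4me3 domains lie over genes that define the identity of the cell. H3K27ac marks active promoters and enhancers, H3K27me3 is laid down by Polycomb repressive complexes, and the pairing of H3K4me3 with H3K27me3 at silent developmental genes is called bivalent. A residue cannot be acetylated and methylated at once, so both H3K27 marks on 1 peak lie on different histone tails, alleles, cells or stretches of the peak. Epiblast stem cells represent the primed state of pluripotency, in which many lineage genes are held in the bivalent state.

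The broadest peaks measured 3389 to 8039 bp, with a median of 3.9 kb, against 0.966 kb for the 27440 other peaks. The last peaks inside the limit were 3397, 3396, 3396, 3396 and 3389 bp wide, and the first outside were 3388, 3381, 3377, 3377 and 3376 bp wide, so the limit cuts a continuous range. Of the 500, 480 had a score of 3100 or more, the level at which the authors' scores pile up. The peaks were spread over all 19 autosomes, 12 to 43 on each, and made up between 1.26% and 2.93% of a chromosome's H3K4me3 peaks. They fell into 497 separate loci when joined within 5 kb and 486 within 50 kb.

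Most broad peaks were acetylated, but a sizeable minority carried the Polycomb mark. H3K27ac overlapped 373 of the 500 (74.6%, 70.6 to 78.2), against 49.3% of all H3K4me3 peaks on these chromosomes and 48.9% of the others. H3K27me3 overlapped 161 (32.2%, 28.3 to 36.4), against 16.8% of all peaks and 16.5% of the others. H3K4me1 was nearly universal, at 491 of 500 (98.2%, 96.6 to 99.1), against 85.5% of all peaks and 85.2% of the others. With at least 50% of the peak required to be covered, H3K27me3 marked 11.4% of the broad peaks and 9.89% of the others, a difference of 1.51 points whose 95% Newcombe interval, -1.01 to 4.62, includes 0. With the same cover required, H3K27me3 marked 10% of the next 500 peaks by width. The difference from them was 1.4 points (-2.46 to 5.27), which also covers both signs. A share of bases does not grow with room in the way that any overlap does. By that measure H3K27ac covered 53.3% of the broad peaks' 2.06 Mb and 46.9% of the others' bases, H3K27me3 covered 13.4% in the broad peaks and 10.4% in the others, and H3K4me1 covered 66.8% in the broad peaks and 74.7% in the others. H3K27ac covered more in the next 500 peaks by width (58%) and in the other peaks scoring 3100 or more (67.2%) than in the broad peaks. For these sets, in the same order, H3K27me3 covered 10.8% and 2.94%, and H3K4me1 67.8% and 66.3%.

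The combination of the H3K27 marks sorted the broad peaks into 4 states. H3K27ac without H3K27me3 marked 323 (64.6%, 60.3 to 68.7), against 48.4% of all peaks. H3K27me3 without H3K27ac, called bivalent here, marked 111 (22.2%, 18.8 to 26), against 15.9% of all peaks. This name rests on any overlap between the 2 peak lists, however short, and cannot tell whether H3K4me3 and H3K27me3 lie in the same cells. Both H3K27 marks, counted anywhere in the peak, met on 50 (10%, 7.67 to 12.9), against 0.923% of all peaks. Neither lay on 16 (3.2%, 1.98 to 5.13), against 34.8% of all peaks. The 50 peaks with both marks stood at 0.416 of the share that the product of the 2 overlap shares gives (24%). Among the other peaks that ratio was 0.094. A wider peak has more room for both marks on separate stretches, and the part of width in this contrast was not tested.

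**Figure D1:**
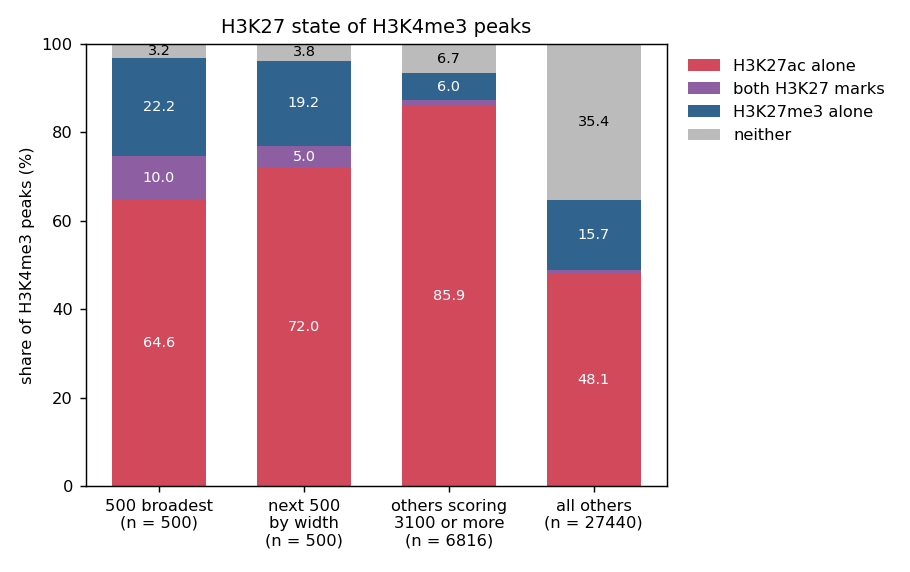
Share of H3K4me3 peaks (%) in each H3K27 state, for the 500 broadest peaks, the next 500 in width, the other peaks scoring 3100 or more and all other peaks. H3K27me3, alone or with H3K27ac, marked 32.2% of the broadest peaks and 7.41% of the other peaks scoring 3100 or more, while 35.4% of all other peaks had neither mark.

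The set used for comparison decided the direction for H3K27ac. Many of the 27440 other peaks are weak, and only 24.8% of them score 3100 or more. Against the 6816 others at or above that score, which had a median width of 1.94 kb, the broad peaks carried H3K27ac in a lower share, 74.6% against 87.4%, a difference of -12.8 percentage points (95% Newcombe interval -16.8 to -9.08). H3K27me3 went the other way, with 32.2% of the broad peaks and 7.41% of the strong others, a difference of 24.8 points (20.8 to 29.1). Both H3K27 marks together were found, anywhere in the peak, on 10% of the broad peaks and 1.45% of the strong others. The strong others were picked on the H3K4me3 score and were narrower, and the part of score or width in these differences was not tested.

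Within the broad peaks the shares of H3K27ac and H3K27me3 stayed within about 10 points across ranks, while peaks with both marks were more frequent at the top. H3K27ac was met by 77, 80, 72, 72 and 72 of each successive 100 in order of width, and H3K27me3 by 36, 29, 34, 36 and 26. Peaks with both H3K27 marks numbered 16, 12, 8, 9 and 5 in the same order. The next 500 peaks in width, from 3388 down to 2948 bp, had H3K27ac on 77%, H3K4me1 on 97.4% and H3K27me3 on 24.2%. The differences, broad peaks minus the next 500, were -2.4 points (-7.69 to 2.91) for H3K27ac and 0.8 points (-1.11 to 2.79) for H3K4me1. For H3K27me3 the difference was 8 points (2.42 to 13.5). Any overlap counted here, however short, so the wider peaks had more room. In the central 500 bp of each peak the H3K27me3 difference was 3.8 points (-0.719 to 8.31), an interval that covers both signs. Among the 10000 peaks between 495 and 1337 bp wide, far below the broad peaks in rank, H3K27ac lay on 47.9%, H3K4me1 on 88.3% and H3K27me3 on 16.4%.

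To give every peak the same room, the marks were also scored in the central 500 bp alone, a window that reaches past the ends of peaks narrower than this. H3K27ac lay there in 63.6% of the broad peaks (59.3 to 67.7) and 48.4% of the others. H3K27me3 lay there in 17.6% of the broad peaks (14.5 to 21.2), which is 5.05 points (95% Newcombe interval 1.94 to 8.65) above the share of the others. H3K4me1 turned round: it reached the centre of 60.6% of the broad peaks (56.3 to 64.8) and of 80.9% of the others. Against the strong others alone, the central shares were 63.6% against 84.3% for H3K27ac, 60.6% against 78.5% for H3K4me1, and 17.6% against 2.61% for H3K27me3. The next 500 in width had H3K27ac there in 69.8%, H3K4me1 in 63.6% and H3K27me3 in 13.8%. The differences, broad peaks minus these, were -6.2 points (-12 to -0.358) for H3K27ac and -3 points (-8.98 to 3.01) for H3K4me1. For H3K27me3 the difference was 3.8 points (-0.719 to 8.31), which does not separate the 2 sets. H3K27ac without H3K27me3 in this window marked 62.4% of the broad peaks, 48.2% of the others and 84.2% of the strong others. These shares were close to those of H3K27ac there, so few peaks of these sets had both H3K27 marks in the window.

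**Figure D2:**
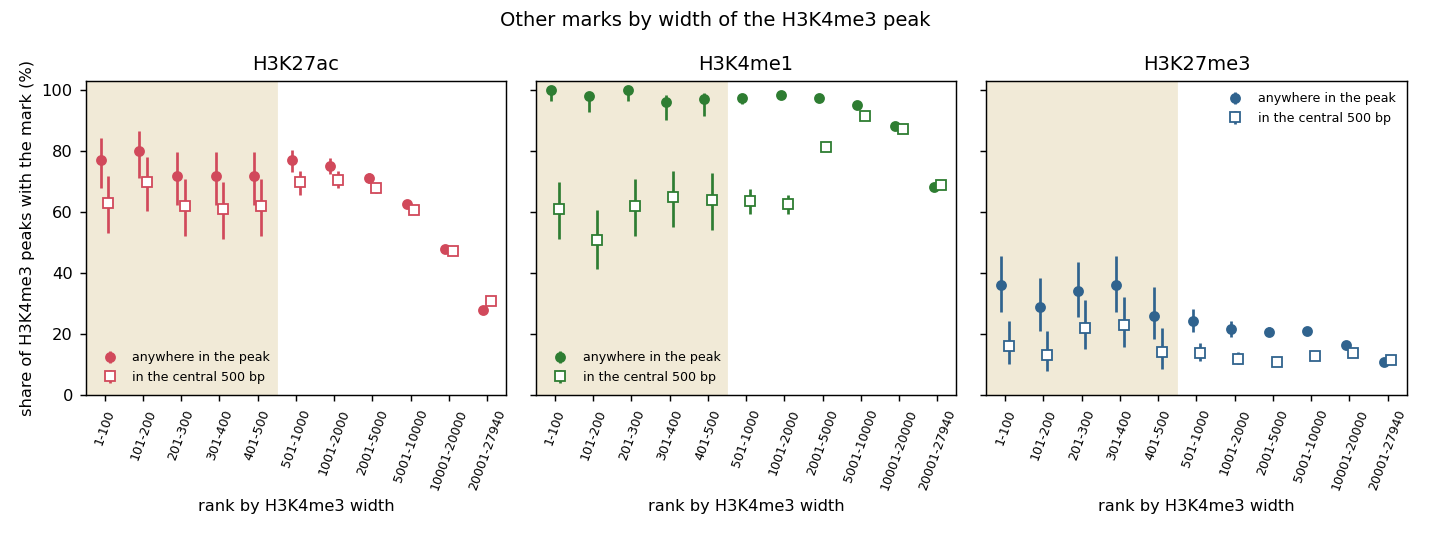
Share of H3K4me3 peaks (%) with each other mark, by rank in H3K4me3 width, anywhere in the peak (filled circles) and in its central 500 bp (open squares), with 95% Wilson intervals; the shaded groups are the 500 broadest. H3K27ac anywhere in the peak lay on 72 to 80 of each 100 broad peaks, and H3K4me1 met nearly all of them but only 51 to 65 of each 100 at the centre.

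The 10 widest peaks show the range of states. The widest, at chr18:55144889-55152927, was 8.04 kb long, and H3K27ac covered 98.3% of it, largely through an acetylated peak of 11.9 kb that ran past it, while H3K4me1 covered 44.6%. The second, chr19:5797091-5804314, was under H3K27ac over 77.2% of its length and under H3K4me1 over 42.3%. The third to the fifth, chr14:106291446-106298648, chr8:91564158-91571263 and chr11:95863200-95870177, had H3K27ac over 91%, 73.7% and 99.1% of their length in that order. Each of these 5 peaks had 2 H3K4me1 peaks and 0 H3K27me3 peaks.

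The sixth widest, chr4:48055258-48062165, was divided between the H3K27 marks. H3K27ac covered 2.46 kb and H3K27me3 covered 2.92 kb of its 6.91 kb, with 0 bases in common. The seventh, chr5:58105210-58112021, had no H3K27ac and only 0.441 kb of H3K27me3. The eighth, chr17:71196869-71203648, was acetylated over 98.4% of its length and the ninth, chr11:68871894-68878646, over 57.8%. The last of the 10, chr11:69612722-69619385, lay wholly under 1 H3K4me1 peak and held 1.52 kb of H3K27ac and 2.3 kb of H3K27me3. All 10 scored 3100.

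**Figure D3:**
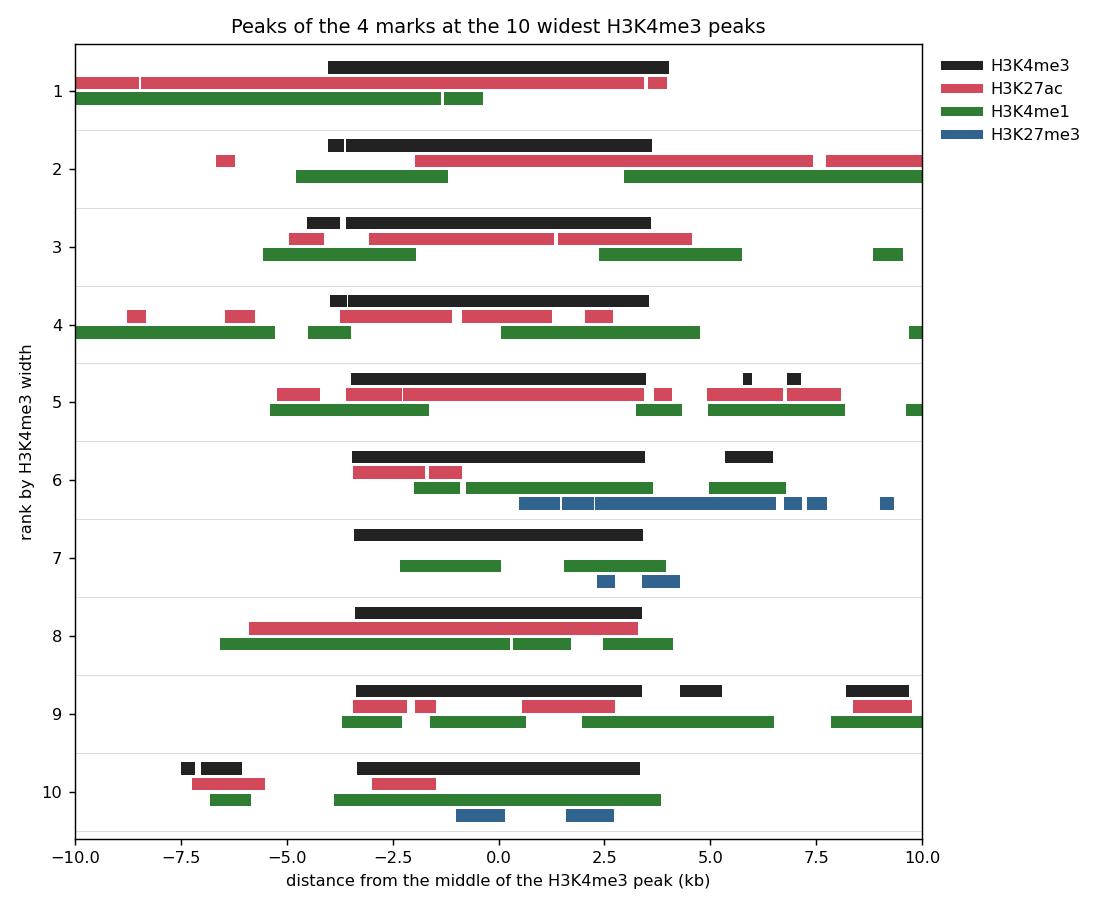
Peaks of the 4 marks within 10 kb of the middle of each of the 10 widest H3K4me3 peaks, ranked from the widest at the top; the axis gives distance in kb and each bar is 1 peak interval. Of the 10 peaks, 7 have H3K27ac alone, 2 have both H3K27 marks on separate stretches, and 1 has H3K27me3 alone.

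Acetylated broad peaks were acetylated over most of their length. Among the 323 with H3K27ac alone, H3K27ac covered a median of 84.7% (interquartile range 61.4 to 97.4), and 203 were covered over 75% or more while 19 were covered over less than 25%. The median was 84.3% in the next 500, 85.8% in the strong others and 91.9% in all others of this state, and these sets were narrower than the broad peaks. The longest H3K27ac peak met by a broad peak of this state had a median of 2880 bp. It was 2506 bp in the next 500, 1568 bp among the strong others and 1358 bp among all others of this state. A wider peak also has more room to meet a long H3K27ac peak. For the broad peaks of all states, H3K27ac covered a median of 61.2% of the length.

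At 46 of the 500 broad peaks (9.2%, 6.97 to 12.1) the whole interval lay under H3K27ac, against 11.2% of the next 500, 15% of the strong others and 16.3% of all others, so full cover was no more frequent at the broad peaks. The widest of these were chr5:143579592-143585302, chr14:55191982-55197470, chr2:168587347-168592751, chr11:98820707-98825972 and chr5:123436516-123441645, of 5711, 5489, 5405, 5266 and 5130 bp. The last of them sat inside the longest H3K27ac peak that any broad peak met, 12.1 kb. A single H3K27ac peak of 12 kb on chromosome 3 spanned chr3:128924578-128928737 and nearly all of chr3:128916770-128920356, which are therefore not separate acetylated regions. Another, also of 12 kb, covered chr11:69222285-69225908.

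Breadth of H3K4me3 went with breadth of H3K27ac at a part of these sites. Of the 500 widest H3K27ac peaks on the same chromosomes, each at least 4018 bp long, 85 (17%) overlapped a broad H3K4me3 peak, and 85 of the broad peaks (17%) met one of them, against 1.89% of the other H3K4me3 peaks and 2.36% of the strong others. For the 500 widest H3K4me1 peaks, the share of broad peaks that met one was 7.6%, against 2.37% of the others. For the 500 widest H3K27me3 peaks it was 6%, against 3.77% of the others and 0.205% of the strong others. A wider peak meets more of any list, so these shares are descriptions.

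H3K4me1 formed a rim around the acetylated broad peaks. In the 323 with H3K27ac alone, H3K4me1 covered 84.1% of bases in the outermost twentieths of the peak and 38.6% in the middle 10%, while H3K27ac covered 55.5% and 86% of the same stretches. H3K4me1 then covered 73.2% of bases in the first kb outside the edges and 29.7% between 2 and 5 kb. In 123 of these peaks (38.1%, 33 to 43.5) H3K4me1 lay on the first and last base but nowhere in the central 500 bp, against 9.99% of the strong others with H3K27ac alone. The longest stretch without H3K4me1 inside a peak had a median of 1513 bp, against 592 bp in those strong others, where the middle 10% was covered to 52.4% and the outermost twentieths to 70.2%. Those strong others were narrower, at a median of 1.9 kb against 3.9 kb. A window of 500 bp is therefore a larger part of them, and they have less room for a long free stretch. Neither the edge and centre count nor the free stretch was taken for the next 500 in width. Acetylated peaks of the next 500 in width had H3K4me1 over 35.7% of bases in the middle 10% and 82% in the outermost twentieths, so the dip did not set the broad peaks apart from them.

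The dip was shallower at the bivalent broad peaks. In the 111 with H3K27me3 alone, H3K4me1 covered 77.2% of bases in the middle 10% and 86.1% in the outermost twentieths, and a median of 90.3% of the peak's length (75.5 to 99.5), against 58.8% for the broad peaks with H3K27ac alone. It reached the central 500 bp of 84.7% of them (76.8 to 90.2), against 48.6% of the broad peaks with H3K27ac alone (43.2 to 54). Among the next 500 in width these shares were 97.9% for 96 bivalent peaks and 52.2% for 360 acetylated ones, so the gap between the states was also present just below the limit. The longest stretch without H3K4me1 had a median of 335 bp. The bivalent and acetylated broad peaks had similar widths, at medians of 3796 and 3896 bp. The state was defined by the H3K27 lists and not by H3K4me1.

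**Figure D4:**
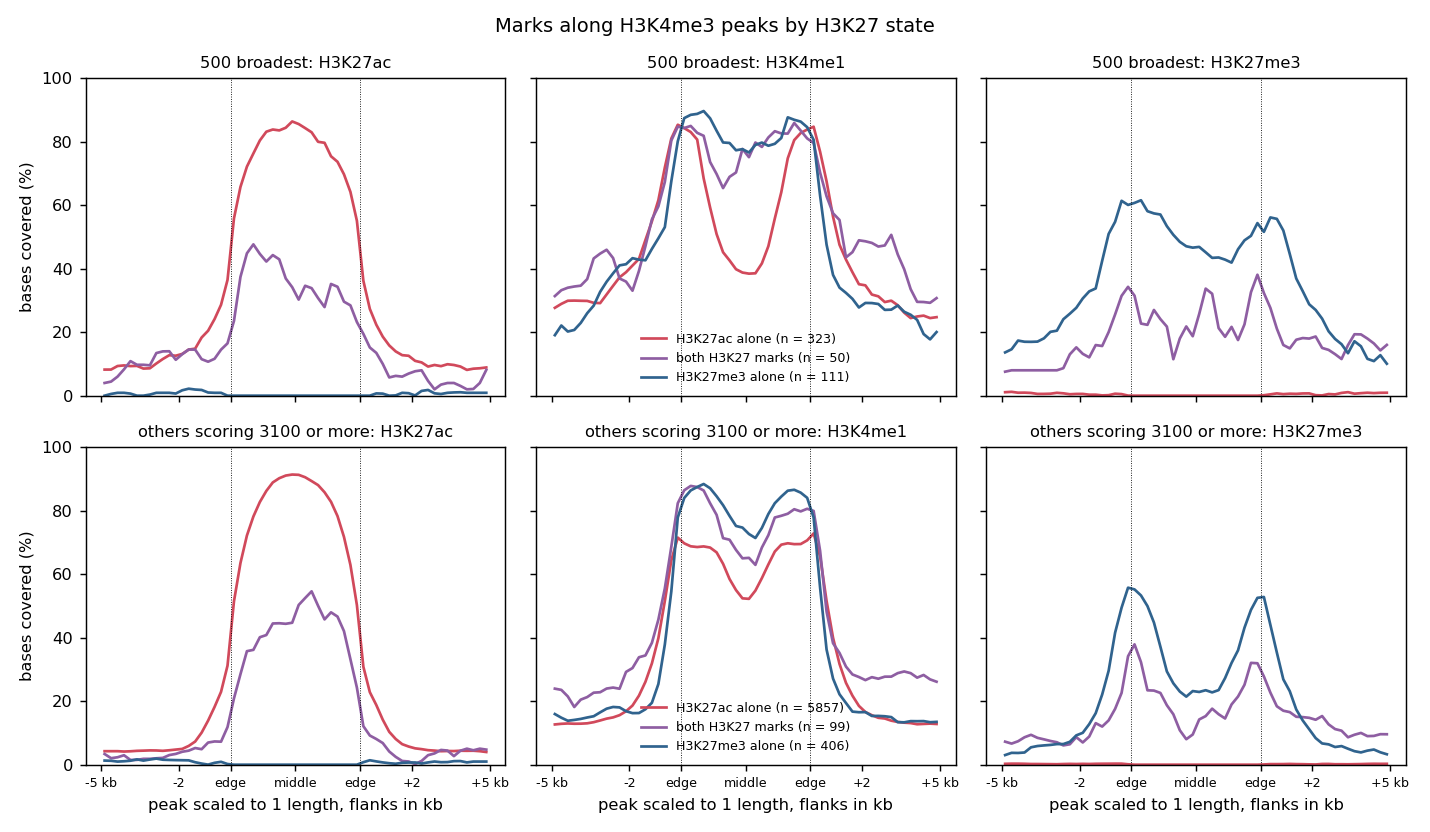
Mean share of bases (%) under H3K27ac, H3K4me1 and H3K27me3 along H3K4me3 peaks, which were scaled to 1 length between the dotted lines, and in flanks of 5 kb in steps of 250 bp, for the 500 broadest peaks (top) and the other peaks scoring 3100 or more (bottom), by H3K27 state. H3K4me1 dips to 38.6% in the middle of the acetylated broad peaks but stays at 77.2% in the bivalent ones, and H3K27me3 covers 55.4% of bases in the first kb beyond the edges of the bivalent broad peaks.

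H3K27me3 covered the bivalent broad peaks partly. The median share of length under it was 47.7% (29.4 to 68.2), against 30.9% in the 406 bivalent strong others, 50.4% in the 96 bivalent peaks of the next 500 and 66.6% in all 4320 other bivalent peaks. The direction therefore depended on the set compared. It covered 75% or more of 23 of the 111 and less than 25% of 24. The mark was denser at the edges than in the middle, with 57.6% of bases in the outermost twentieths and 46.8% in the middle 10%, against 53.9% and 23.1% in the strong others and 70.3% and 55.8% in all other bivalent peaks. Beyond the edges, 55.4% of bases in the first kb and 17.9% between 2 and 5 kb were under H3K27me3, against 42% and 5.41% at the strong others, 57.1% and 19.4% at the bivalent peaks of the next 500, and 60.3% and 31.1% at all other bivalent peaks.

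The most H3K27me3 lay on chr2:160190165-160196715, where it covered 5.16 kb (78.7%) of 6551 bp. Next came chr14:65205448-65210155 with 4.46 kb (94.6%), chr9:58043718-58047897 with 4.18 kb (100%), chr5:108151974-108156136 with 4.05 kb (97.3%) and chr11:84335865-84340774 with 4.01 kb (81.7%). These 5 had no H3K27ac, and H3K4me1 covered 87.3% to 100% of each. H3K27me3 domains with 10 kb or more under the mark, made by joining peaks within 5 kb, held 25 of the 500 broad peaks (5%, 3.41 to 7.28), against 5.64% of the other peaks and 0.308% of the strong others. With 111 bivalent broad peaks and 25 broad peaks in such domains, most of the bivalent ones lay outside them.

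Where both H3K27 marks met on a broad peak, they mostly took different stretches of it. In 33 of the 50 peaks (66%) no base was under both, and in 32 (64%) all H3K27ac lay on one side and all H3K27me3 on the other. The middles of the marks were a median of 1.84 kb apart. H3K27ac covered 35.6% and H3K27me3 24.2% of the summed length, and 3.21% was under both, against 8.6% for the product of the 2 shares. Among the 208 other peaks with both marks, 130 (62.5%) had no shared base and the middles were 0.872 kb apart. These others had a median width of 1.95 kb, against 4.19 kb for the broad peaks of this state, so their marks had less room to lie apart. Of the others' summed length, 7.57% was under both marks, against 11.5% for the product of their 2 shares. Separate stretches do not show that the marks lie in the same cells, which peak lists cannot tell.

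The 5 peaks of this state with the most H3K27me3 differed in their layout. At chr10:84217333-84223872, H3K27ac over 2047 bp and H3K27me3 over 3644 bp of 6540 bp shared 1100 bp. At chr4:48055258-48062165, already described, they shared 0 bp. At chr17:15510829-15514833, H3K27ac over 1003 bp and H3K27me3 over 2603 bp shared 453 bp, and at chr5:31394703-31398352 the marks, over 491 and 2479 bp, shared 60 bp. At chr1:138842930-138846843 all 390 bp of H3K27ac lay under H3K27me3. The H3K27ac at these peaks was short, with no single peak above 1.69 kb, and over the 50 peaks the longest H3K27ac peak had a median of 887.5 bp.

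**Figure D5:**
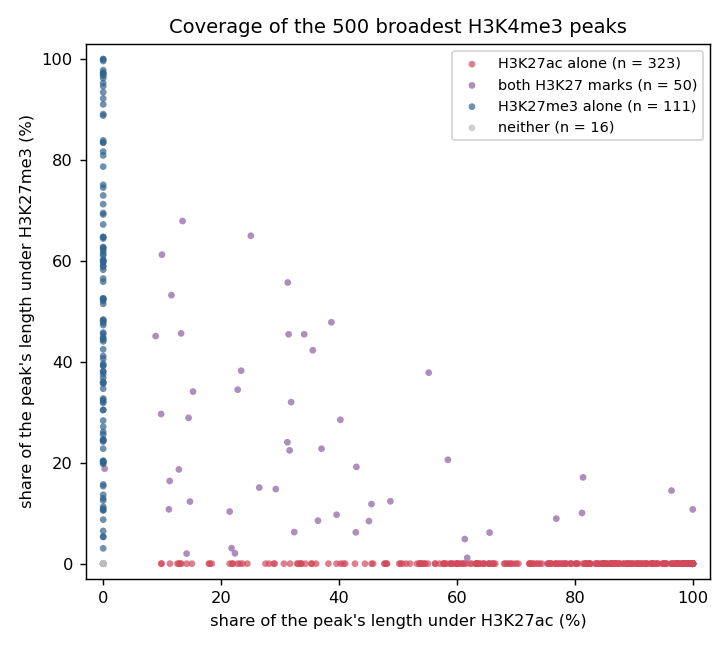
Share of each broad peak's length (%) under H3K27ac (horizontal axis) and under H3K27me3 (vertical axis), 1 point for each of the 500 peaks, coloured by H3K27 state. The 323 acetylated and 111 bivalent peaks lie on the axes, and the 50 with both marks have medians of 31.5% under H3K27ac and 18.8% under H3K27me3.

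The 16 broad peaks with neither H3K27 mark were not bare, since H3K4me1 lay on 15 of them. The widest, chr11:48666083-48672692, was 6.61 kb long with H3K4me1 over 59.9%. A H3K27me3 peak lay within 1 kb of 7 of the 16, without touching them, and H3K27ac within 1 kb of 0. At 1 broad peak, chr7:38972482-38975923, no other mark was found. It scored 438.5, far below the level that most broad peaks reach.

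H3K4me1 was missing from 9 broad peaks. Of these, 6 had H3K27ac: chr8:12394389-12398672, which held H3K27me3 as well, chr3:34548860-34552987, chr19:61300778-61304507, chr19:32831982-32835620, chr18:39648187-39651704 and chr2:174119660-174123067. H3K27ac covered 98.7%, 100% and 99.5% of the second to the fourth, but 11.6%, 18.4% and 57.7% of the other 3. The remaining 3 were chr17:39979945-39983682 and chr12:96931266-96934890, with H3K27me3 alone, and the chromosome 7 peak with no other mark.

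The 20 broad peaks that scored below 3100 were mostly bivalent. H3K27me3 without H3K27ac marked 18 of them, and 18 of the 20 still scored 1900 or more. A score of 3100 or more was reached by 83.8% of the bivalent broad peaks and 99.7% of those with H3K27ac alone. In the next 500 the shares were 72.9% and 97.2%, so this gap was also present just below the limit. The lowest score was 113.3, at chr17:39979945-39983682, where 1 H3K27me3 peak covered 97% of 3738 bp and the nearest H3K4me1 peak was 728 kb away. The nearest H3K27ac peak was 739 kb away. Whether this interval is a mapping artefact was not tested, since the input was not analysed. The score is from the library that chose the peaks and is given only to show how strong the members are. With these 20 left out, H3K27ac was met by 77.5% and H3K27me3 by 29.8% of the rest.

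The surroundings of the broad peaks also held more acetylated distal elements, taken as H3K4me1 peaks with H3K27ac and no H3K4me3 peak within 1 kb. At least 1 of the 9546 such elements lay within 50 kb of 270 broad peaks (54%, 49.6 to 58.3), against 40% of the others, 43.5% of the strong others and 44.4% of the next 500 in width. By state the share was 63.8% for the 323 broad peaks with H3K27ac alone and 33.3% for the 111 bivalent ones, against 45.2% and 25.9% of the strong others of the same states. The mean number of such elements was 1.45 near a broad peak with H3K27ac alone and 0.423 near a bivalent one. The largest H3K27ac clusters were the top 170 of 16953 by covered length, after joining neighbours over the distance commonly used for super-enhancers. They held 47 broad peaks (9.4%, 7.14 to 12.3), against 2.76% of the others and 6.8% of the next 500 in width. The difference from the next 500 was 2.6 points, with a Newcombe interval of -0.807 to 6.04 that covers both signs. A broad acetylated peak adds to the covered length of its own cluster, so the share of broad peaks in these clusters is partly built in. The distal elements do not include the peak itself.

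Another H3K4me3 peak lay within 1 kb of 214 broad peaks (42.8%, 38.5 to 47.2), against 40.8% of the next 500, 39.6% of the strong others and 46.9% of all others, shares close to one another. The median distance to the nearest one was 5.02 kb for broad peaks with H3K27ac alone, 1.41 kb for bivalent ones and 0.281 kb for those with both H3K27 marks. In the strong others the order was different, at 5.96 kb, 16.6 kb and 5.57 kb for the same states, and in all others the first 2 states had 0.38 kb and 0.853 kb. In the next 500 by width the medians were 8.02 kb, 1.68 kb and 3.76 kb, so the first 2 states kept the order of the broad peaks. When peaks were joined within 1 kb before ranking, 443 of the 500 widest regions consisted of more than 1 peak, as ranking joined regions by width favours, and 226 of the broad single peaks lay in one of them. H3K27me3 was then met by 44% and H3K27ac by 68.2% of the 500, so the Polycomb share depends on whether the authors' intervals or the joined regions are ranked.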

How the data were processed

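The members, lists and joining distances were chosen with earlier results of these data known. The authors deposited 4 lists of peak intervals on mm9, 1 per mark, each with a score per peak. Bowtie 0.12.9, MACS 1.4 and Cufflinks appear in the submitters' processing notes without a stated task. Which control entered peak calling, how duplicates were handled and which threshold applied is not given in the sources used here. Other values used are the deposited interval starts and ends. No read counts were used, so depth is unknown, and a deeper library can give more and wider peaks. Scores start at 50, pile up at 3100 in the H3K4me3 list, and served only to filter or describe peaks within a list.

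Peaks were ranked by width, ties by chromosome and start. Overlap meant at least 1 shared bp. Wilson intervals were given at 95%, and differences of shares carry Newcombe intervals built from them. Peaks of 1 library are not replicates, so no test was made. The interval functions were tested on simulated data. Named regions follow a rule: the 10 widest, the 5 on each side of the limit, and the first 5 by H3K27ac share (ties by width), longest H3K27ac peak, H3K27me3 bases, H3K27me3 bases among peaks with both marks, and width among those with no other mark or with H3K27ac and no H3K4me1. The peaks without an H3K27 mark, without H3K4me1 or below 3100, and any other position, were named after their values were seen. The annotation at hand is of another build, so gene names, sequences and the check of feeder and lineage markers were not used here. Coordinates are 1-based. Python 3.11.15, numpy 2.4.6, scipy 1.17.1, pandas 2.3.3 and matplotlib 3.10.9 were used.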

Additional observations from a re-analysis of the deposited data

How the results depend on the processing

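Values are differences in percentage points, broad minus other peaks, with the overlap of H3K27ac (25.7), H3K4me1 (13), H3K27me3 (15.7) and H3K27ac without H3K27me3 (16.5) as reported. H3K27me3 stayed higher in the broad peaks under all 10 planned settings and the 3 added after seeing the data, between 1.51 and 28 points. The lowest, with 50% of the peak covered, has an interval of -1.01 to 4.62 that includes 0. Equal numbers of top peaks kept all 16975 H3K27me3 peaks, so for this mark that setting repeats the reported value and is no check. With 50% of the peak covered, the values were 14.4 for H3K27ac, -1.32 for H3K4me1 and 1.51 for H3K27me3. In the central 500 bp they were 15.2, -20.3 and 5.05. Other marks at or above their median score gave 24.7 for H3K4me1 and 24.1 for H3K27ac without H3K27me3, and equal numbers of top peaks gave 33 and 22.5. Joining H3K4me3 within 1 kb gave 17.9 for H3K27ac, 28 for H3K27me3 and 4.8 for H3K27ac without H3K27me3. The last was 20.6 for the 1000 widest, and H3K4me1 was 14 with X included. Against the others scoring 3100 or more, in the order of the first sentence, the values were -12.8, 3.35, 24.8 and -21.3, and against the next 500 in width -2.4, 0.8, 8 and -7.4. Added settings against the others scoring 3100 or more gave -20.7, -17.9 and -21.8 in the central 500 bp (H3K27me3 15), then -9.88, 3.9, 22.4 and -18.8 with broad peaks below 3100 left out, and -18.9, 0.601, 9.93 and -18.9 with 50% covered. In these the comparison set is stronger, and the window removes the extra room of wide peaks. The cause of a change was not tested for any setting. The remaining 20 planned values kept their direction and lay within the 95% interval of the reported difference, or within the interquartile range for the median share of length. They include the repeated H3K27me3 value with equal numbers of top peaks and 11.8 for H3K27me3 in the 1000 widest (interval 11.7 to 19.9). All 3 values for the median H3K27ac share of length (56, 61.7 and 67.6% against 61.2%) are also among them. No paired analysis was possible because each mark has 1 library. Depth is unknown, and weak H3K27me3 below the authors' threshold would not appear in the lists.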
